A study of Mus musculus with 6 samples.

Results

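Serpina3n, Serpina3m, Serpina3g, Lcn2, Saa3, Orm1, Hp and Cp are 8 mouse genes for 3 serpins of the Serpina3 family and 5 other acute phase proteins, taken from the 37318 genes of an array series on the noise-exposed cochlea. A probe belonged to the set when the gene name in the array files equalled one of these 8 symbols, which gave 13 of 56605 probes. Serpina3n, Serpina3m, Serpina3g, Saa3, Orm1 and Hp had 1 probe each, Lcn2 had 2 and Cp had 5. The genes were selected on signals of these same arrays, above all the difference between dexamethasone and saline at 12 h, so their values are given as a description and without tests.

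The RNA came from cochleae of female C57BL/6 mice aged 6 weeks, and 6 groups were measured on 1 one-colour Agilent array each. In the Dex 12 h group, mice were exposed to noise for 2 h, received the synthetic glucocorticoid dexamethasone (labelled as dexamethasone sodium triphosphate) intraperitoneally at 10 mg/kg right afterwards, and were sampled 12 h later. The Saline 12 h group had the same noise and a saline injection instead. Dex 24 h and Saline 24 h mice were treated likewise and sampled at 24 h. Noise only mice were exposed for 2 h without an injection, at a time after noise that the labels do not give, and Baseline mice had neither noise nor dexamethasone. Each group held 6 mice by the design text, which does not say whether their RNA was pooled. With 1 array per group no difference had a replicate check, and the interval after each fold is the 95% interval of the scanner software's spot error, which covers error on the array only. Between 63.0% and 70.3% of probes were well above background per array. The Dex 12 h and Saline 12 h arrays shared a slide and a scan, and the 4 remaining arrays another, so for Saline 12 h against Baseline slide and group cannot be told apart. Of 16 marker genes of cochlear cells, 14 were well above background on all 6 arrays.

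Acute phase proteins are plasma and tissue proteins whose synthesis changes during inflammation. The liver is their main source, where interleukin-6 acts through the transcription factor STAT3 and glucocorticoids through their receptor, but epithelia, glia, macrophages and neutrophils also make some of them. Serpins are inhibitors that trap proteases by a change of shape. In mice the single human gene for alpha-1-antichymotrypsin corresponds to a cluster of Serpina3 genes. In the brain, Serpina3n and Lcn2 are known as genes of reactive astrocytes.

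The 3 serpin genes lie on chromosome 12. In the RefSeq annotation of GRCm38.p6, the protein-coding genes from Serpina3g to Serpina3n are, in order, Serpina3g, Serpina3i, Serpina3j, Serpina3k, Serpina3m, Serpina3n. Genes of the cluster outside this stretch are not listed. On mm9, the build of the array files, the probe of Serpina3n was at chr12:105651918-105651977, that of Serpina3m at chr12:105632342-105632400 and that of Serpina3g at chr12:105480045-105480104. The Serpina3m and Serpina3n probes were thus 19.6 kb apart, and those of Serpina3g and Serpina3m 152.3 kb. The probes are 60 bases long, and bases 1 to 30 are shown here because the family is made of similar genes and the letters show how far the probes differ.
Serpina3n: ttggcatgcctggattagatagtgactaac
Serpina3m: atctgtgcatgtttctgaacctggagtctg
Serpina3g: tgtctcttgttgaccaactacgtaggactg
The array holds 15 probes of the Serpina3 family, and the longest run of bases shared with any other of them was 7 of 60 for Serpina3n, 8 for Serpina3m and 7 for Serpina3g. This compares probes with probes only, and they may lie in different parts of their transcripts. Binding of a probe to RNA of another gene of the family was not analysed here. Exon and UTR annotation of these positions was not analysed here.

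The 2 other probes whose reading matters are those of Saa3, which was well above background on every array but Baseline, and of Orm1, for which the array files also name a second gene. The Saa3 probe was at chr7:53967559-53967618 on the minus strand, and the Orm1 probe at chr4:63007395-63009038 on the plus strand of mm9.
Saa3: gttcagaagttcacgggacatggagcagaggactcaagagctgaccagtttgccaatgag
Orm1: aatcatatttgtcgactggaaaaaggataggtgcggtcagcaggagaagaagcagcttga
The Orm1 probe covers 1644 bases of the genome with 60 bases of sequence, and its accessions include one of Orm2, a near copy. Its signal may therefore come from both genes. The probe used for Lcn2 was at chr2:32240199-32240258, that for Hp at chr8:112099045-112099104 and that for Cp at chr3:19889071-19889130.

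Levels below are log2 of the processed signal relative to the 75th percentile of the same array, so 0 is the level of a fairly bright probe. Levels of different member probes are not compared with each other. Summed levels of gene lists, given further below, add different probes, so bright probes weigh most in them. Over the 6 arrays Saa3 spanned 5.05 log2 units, Serpina3m 3.82 and Serpina3n 2.53. Hp spanned 1.70, Orm1 1.54, Lcn2 1.33, Serpina3g 0.76 and Cp 0.72. The median range was 0.63 over the 22460 genes well above background on all 6 arrays. Of those genes 99.6% had a smaller range than Serpina3m and 98.5% a smaller one than Serpina3n. Serpina3g (61.6%) and Cp (58.0%) lay near the middle of that order.

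**Figure D1:**
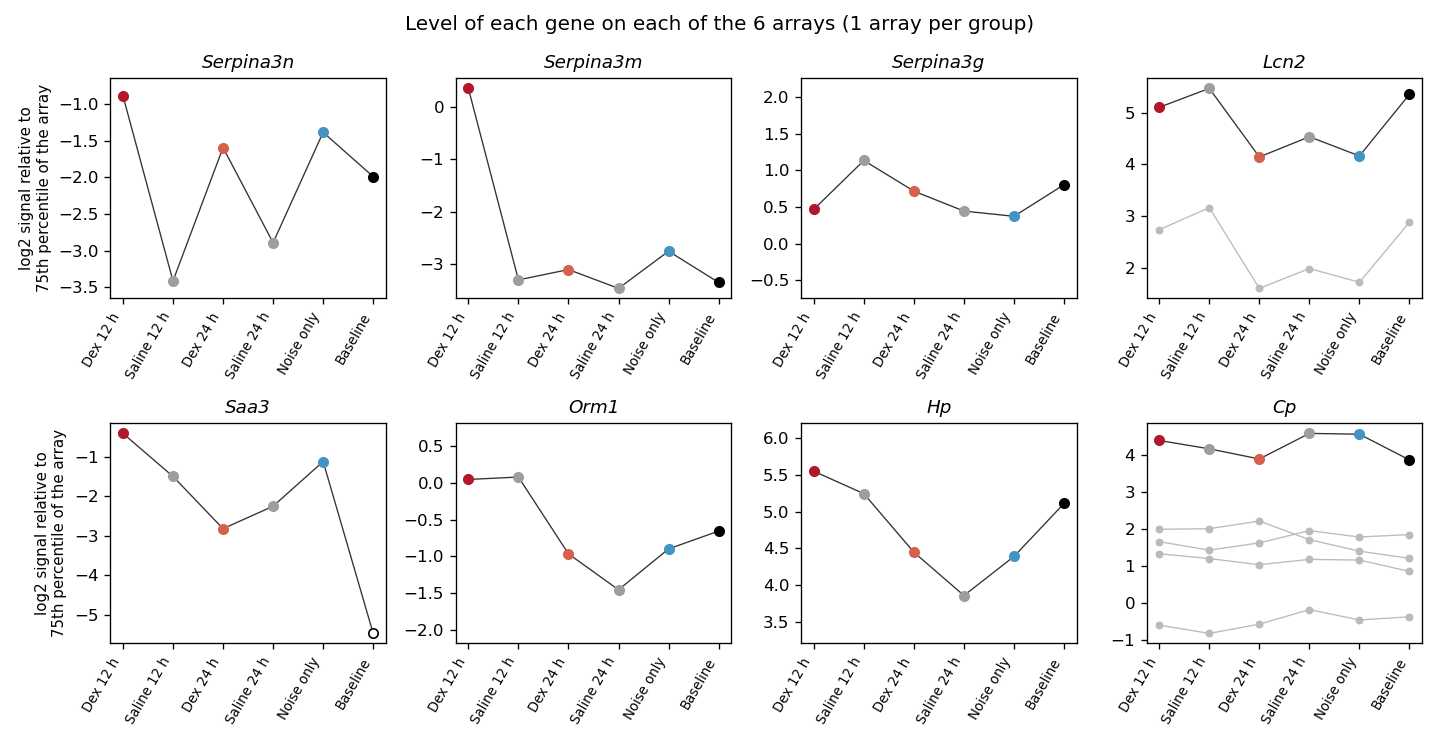
Level of each of the 8 genes (y axis, log2 signal relative to the 75th percentile of the array) on the 6 arrays (x axis, 1 array per group). Large points are the probe used, small grey points the other probes of Lcn2 and Cp, and the open point for Saa3 is not well above background. Serpina3m reached 0.36 on the Dex 12 h array and lay between -3.47 and -2.76 on the other 5.

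With dexamethasone at 12 h, 3 of the 8 genes (Serpina3m, Serpina3n and Saa3) passed 2-fold above saline and 0 passed 2-fold below it. Of all 24179 genes measured in that comparison 3.54% passed 2-fold, 1.67% upwards and 1.87% downwards. At 24 h, 1 of the 8, Serpina3n, passed upwards and 0 downwards, against 3.16% of all measured genes, 1.63% upwards and 1.53% downwards. After noise alone, 0 of 7 measured members passed upwards from Baseline and 1, Lcn2, downwards, against 5.82% of genes, 2.64% upwards and 3.17% downwards. For Saline 12 h against Baseline the counts were 0 upwards and 1 downwards (Serpina3n) of 7, against 7.83% of genes, 4.41% and 3.43%. For Saline 24 h against Baseline they were 0 and 1 (Hp) of 7, against 3.44% of genes, 1.72% in each direction. Saa3 was not counted in the 3 comparisons with Baseline, where it was not well above background on that array. Since these contrasts were used in picking the genes, nothing is read from the counts. The member medians were 0.27 (Dex 12 h), 0.32 (Dex 24 h), -0.24 (Noise only), 0.13 (Saline 12 h) and -0.80 (Saline 24 h), against all-gene medians of -0.02, -0.01, -0.01, 0.06 and 0.01.

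Serpina3n, whose product inhibits leukocyte elastase and granzyme B, had levels of -0.89 (Dex 12 h), -3.42 (Saline 12 h), -1.60 (Dex 24 h), -2.89 (Saline 24 h), -1.39 (Noise only) and -1.99 (Baseline). On this scale it was lowest on the 2 saline arrays and highest on the Dex 12 h array. Both dexamethasone arrays and the noise-only array lay above Baseline on it. The dexamethasone level was 5.76-fold (4.27 to 7.76) that of saline at 12 h and 2.46-fold (1.81 to 3.33) at 24 h. The saline levels were in turn 2.68-fold (1.99 to 3.62) and 1.87-fold (1.38 to 2.53) lower than Baseline, and Noise only was 1.52-fold (1.15 to 2.01) higher. Relative to the 75th percentile, both dexamethasone levels thus lay above Baseline and both saline levels below it. The E1A spike-in probes averaged 2.648 above that percentile on the Dex 24 h array and 2.246 on the Baseline array. With scaling on those probes, Dex 24 h did not lie above Baseline. No interval was computed for dexamethasone against Baseline, and both 12 h arrays lay on the other slide from Baseline. With normexp background correction and quantile normalization the log2 difference was 1.82 at 12 h and 0.89 at 24 h, against 2.53 and 1.30. Saline 12 h minus Baseline, -1.42 on the log2 scale, was -0.97 with that setting, which is under 2-fold, and -2.24 with scaling on the E1A spike-in probes. In whole cochlear tissue, a lower share of the cells that express a gene and less RNA per cell cannot be told apart.

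Serpina3m, a neighbouring gene whose protein belongs to the same clade of secreted inhibitors, had levels of 0.36 (Dex 12 h), -3.31 (Saline 12 h), -3.11 (Dex 24 h), -3.47 (Saline 24 h), -2.76 (Noise only) and -3.36 (Baseline). Only the Dex 12 h array stood apart, and the other 5 arrays lay between -3.47 and -2.76. At 12 h the ratio of dexamethasone to saline was 12.7 (9.38 to 17.1), and at 24 h it was 1.28 (0.888 to 1.85), within the spot error. The log2 difference at 24 h minus that at 12 h was -3.30 (-3.99 to -2.62) for Serpina3m and -1.23 (-1.84 to -0.61) for Serpina3n. The saline levels of Serpina3m, in contrast, lay close to Baseline, with Saline 12 h minus Baseline at 0.05 and Saline 24 h minus Baseline at -0.11, both within the spot error. Background correction with normexp gave 2.79 in place of 3.66 at 12 h.

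Serpina3g, which encodes an intracellular inhibitor of cysteine cathepsins found in blood cells, had levels of 0.47 (Dex 12 h), 1.14 (Saline 12 h), 0.72 (Dex 24 h), 0.45 (Saline 24 h), 0.37 (Noise only) and 0.81 (Baseline). At 12 h it differed in the direction opposite to the other 2 serpins, and dexamethasone was 1.59-fold (1.20 to 2.09) lower than saline. At 24 h it was 1.21-fold (0.915 to 1.59) the saline level, within the spot error. After noise alone it was 1.35-fold (1.02 to 1.78) lower than at baseline.

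**Figure D2:**
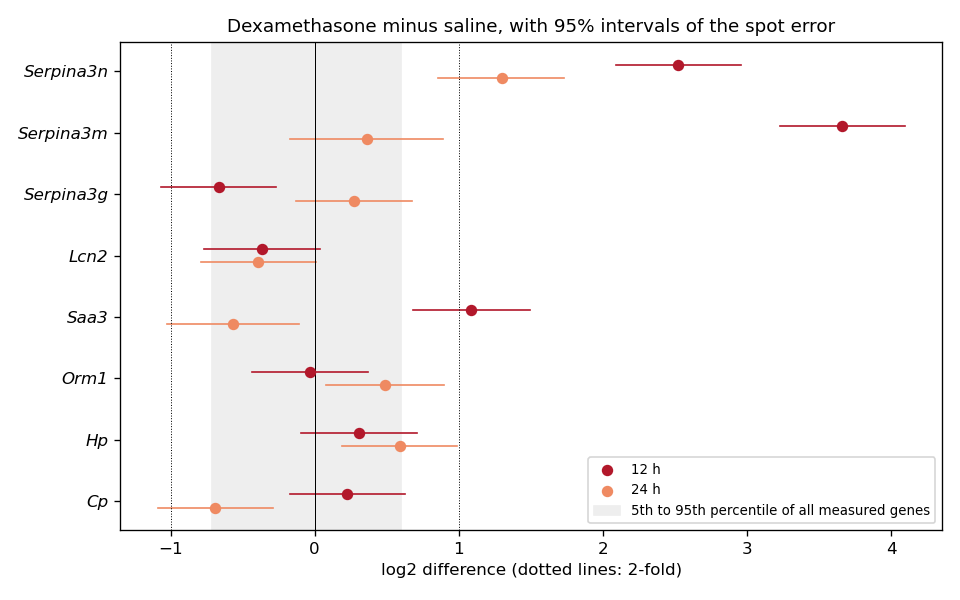
Dexamethasone minus saline for each gene (x axis, log2 difference) at 12 h and 24 h. Points are the difference of 1 array from 1 array, bars are 95% intervals of the spot error, dotted lines mark 2-fold, and the grey band spans the lower 5th to the higher 95th percentile of all measured genes in both comparisons. Serpina3m (3.66) and Serpina3n (2.53) lay far outside the band at 12 h, and at 24 h only Serpina3n (1.30) passed 2-fold.

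Several other clade A serpins were also higher with dexamethasone at 12 h. Of 22 such genes 13 were measured on both 12 h arrays, and 6 were at least 2-fold higher and 0 lower with dexamethasone, with a median log2 difference of 0.08 over the 13. Serpina1d, one of the mouse genes for alpha-1-antitrypsin, was 3.86-fold (2.67 to 5.58) higher, Serpina1e 3.75-fold (2.84 to 4.96), Serpina1a 3.62-fold (2.74 to 4.78) and Serpina3c 3.47-fold (2.12 to 5.69). The Serpina1 genes are near-identical copies, and how their probes share RNA was not analysed here. At 24 h 9 were measured and 0 were 2-fold apart in either direction, with a median of 0.07. After noise alone 0 of 12 were at least 2-fold higher and 5 lower than at baseline, with a median of -0.45, and Serpina1c was 4.16-fold (3.03 to 5.71) lower. In Saline 12 h, 4 of 13 were at least 2-fold higher than Baseline and 0 lower, with Serpina11 at 2.49-fold (1.88 to 3.29), and in Saline 24 h 0 of 9 were higher and 2 lower. Over the 89 measured genes of all 6 pathway lists together, the Saline 12 h direction depended on scaling. Of them 7 were higher and 3 lower than Baseline, and with E1A spike-in scaling 1 was higher and 24 lower. No such count is given for the clade A serpins alone.

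Alb, Ahsg and F2, genes of proteins that hepatocytes secrete, were also higher on the Dex 12 h array than on the Saline 12 h array. Alb, which encodes serum albumin, had processed signals of 890 (Dex 12 h), 49.4 (Saline 12 h), 9.55 (Dex 24 h), 4.94 (Saline 24 h), 10.1 (Noise only) and 5.39 (Baseline), and was well above background on the 2 arrays of 12 h only. After scaling, Alb was 16.5-fold (12.2 to 22.2) higher with dexamethasone than with saline at 12 h, the fetuin gene Ahsg 6.50-fold (4.62 to 9.15) and the prothrombin gene F2 2.43-fold (1.53 to 3.84). Of the 12 genes of that list 10 were measured at 12 h, 9 differences were above 0 and 3 were at least 2-fold higher, with a median of 0.46. The number of the 12 well above background was 11 (Dex 12 h), 10 (Saline 12 h), 6 (Dex 24 h), 6 (Saline 24 h), 8 (Noise only) and 6 (Baseline). The gene not well above background on Dex 12 h was Apob, named after its values were seen. Apob was well above background on 0 of 6 arrays, with a signal of 11.3 on Dex 12 h and of 3.36 to 5.8 on the others. At 24 h 6 of the 12 were measured, with a median of -0.11, and 1 was at least 2-fold higher with dexamethasone, Ttr at 29.7-fold (22.5 to 39.3), a gene that the choroid plexus expresses strongly. Ttr was also 42.2-fold lower than Baseline after noise alone, 38.1-fold lower in Saline 12 h and 30.2-fold lower in Saline 24 h.

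The summed level of the 12 genes, in multiples of the array's 75th percentile, was 128 (Dex 12 h), 135 (Saline 12 h), 183 (Dex 24 h), 163 (Saline 24 h), 158 (Noise only) and 184 (Baseline). These sums are carried by Trf, Ttr and Rbp4, which other tissues of the head also express. Without these 3 genes, a subset chosen after the values were seen, the sums were 5.59 (Dex 12 h), 3.35 (Saline 12 h), 2.85 (Dex 24 h), 4.01 (Saline 24 h), 4.17 (Noise only) and 3.19 (Baseline), and 8 of the 9 genes were highest on the Dex 12 h array. Apoa2, the exception, had the highest level of the 9 on each array. Its log2 level lay between 1.28 (Dex 24 h) and 1.87 (Noise only), so it carried much of these smaller sums. Serpina3k, the neighbour of Serpina3m, and the plasma protein genes Apoa1, Fgb, Fgg and Ambp, also named after their values were seen, were well above background on the Dex 12 h array and on no other. That is 5 of the 114 genes of the 6 pathway lists, while 1.1% of all 37318 genes were well above background on that array alone. Of the same 114 genes, 1 was so on the Noise only array alone and 0 on each of the other 4 arrays alone. The shares of all genes were 1.86% (Saline 12 h), 0.581% (Dex 24 h), 0.584% (Saline 24 h), 0.673% (Noise only) and 0.729% (Baseline).

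Alb, Ahsg and F2, 3 of the 10 measured genes of the list, were thus at least 2-fold higher with dexamethasone at 12 h, as were Serpina3m and Serpina3n. At 24 h, Alb was well above background on neither array, and Serpina3n was 2.46-fold higher with dexamethasone. Alb was well above background on the Saline 12 h array and not on Baseline, and Serpina3n was 2.68-fold lower in Saline 12 h than in Baseline. Alb is 1 gene and each value is from 1 array. The part of the genes of this list in the serpin differences was not tested. Markers of mucosal and salivary gland also differed by array: the summed level of 11 genes was 1740 (Dex 12 h), 1107 (Saline 12 h), 294.5 (Dex 24 h), 296.7 (Saline 24 h), 333.3 (Noise only) and 383.1 (Baseline). Dexamethasone minus saline had a median of 0.54 over all 11 markers at 12 h and of 1.47 over the 8 measured on both arrays at 24 h. At 24 h Dcpp1, named after its values were seen, was well above background with saline but not with dexamethasone. From the measured signals it was 8.0-fold (4.74 to 13.5) lower with dexamethasone. Dcpp1 was also well above background on both 12 h arrays, Noise only and Baseline. Against Baseline, the median was 4.14 for Saline 12 h, with 8 of 11 at least 2-fold higher and 1 lower. It was -2.09 for Saline 24 h over 9 measured, with 1 higher and 5 lower, and -0.31 after noise alone over 11, with 1 higher and 1 lower. The part of these markers in the member values, those against Baseline included, was not tested either. The medians at 12 h and 24 h were -0.21 and 0.61 for astrocyte and oligodendrocyte markers, 0.08 and 0.80 for adipocyte markers, and 0.13 and 0.62 for choroid plexus and meninges. They were -0.26 and -0.07 for macrophages and monocytes, -0.54 and -0.70 for T and NK cells, and -0.03 and -0.39 for cochlear cells.

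**Figure D3:**
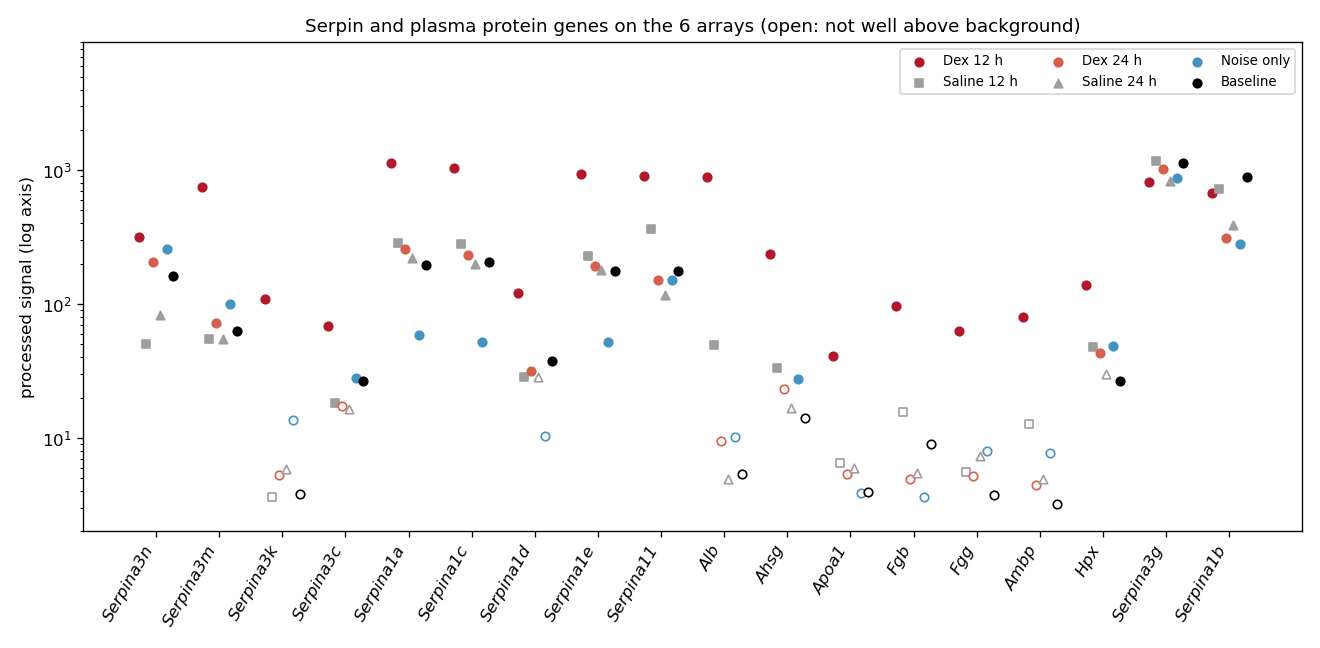
Processed signal before scaling (y axis, log axis) of 18 serpin and plasma protein genes on the 6 arrays, a selection made after the values were seen. Open symbols are not well above background. The Dex 12 h points of Serpina3m (753), Serpina1a (1127) and Alb (890) lie above those of the other 5 arrays, and Serpina3g and Serpina1b show no such gap.

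Saa3, a serum amyloid A made outside the liver by macrophages, adipocytes and epithelia, had levels of -0.41 (Dex 12 h), -1.50 (Saline 12 h), -2.82 (Dex 24 h), -2.25 (Saline 24 h), -1.12 (Noise only) and -5.46 (Baseline). It was well above background on all 5 arrays from noise-exposed mice and not on the Baseline array. Against the lowest signal well above background there, it was 18.3-fold higher after noise alone. In Saline 12 h it was 14.1-fold higher and in Saline 24 h 8.38-fold higher. These folds leave out the spot error. From the measured signals the folds were 20.2 (10.9 to 37.6), 15.6 (8.38 to 29.0) and 9.26 (4.95 to 17.3). These 3 comparisons share the Baseline array, so a low Baseline array and higher noise arrays cannot be told apart. The log2 differences, measured as 4.34, 3.96 and 3.21, were 2.03, 1.71 and 1.19 with normexp background correction and quantile normalization.

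Dexamethasone and saline differed for Saa3 in opposite directions at the 2 times. At 12 h it was 2.12-fold (1.61 to 2.81) higher with dexamethasone, and at 24 h 1.48-fold (1.08 to 2.04) lower. Over 7 settings of scaling, background and probe choice, the log2 difference at 12 h ran from 0.87 to 1.37. It was thus not at least 2-fold in each setting. Saa2, a serum amyloid A of the liver type, had Dex 24 h over Saline 24 h at 2.05-fold (1.51 to 2.78), opposite to Saa3. Against Baseline, Saa2 was 4.08-fold (2.86 to 5.82) higher after noise alone, 6.51-fold (4.57 to 9.27) in Saline 12 h and 3.01-fold (2.08 to 4.36) in Saline 24 h. As for Saa3, its lowest value of the 6 arrays was that of Baseline. Saa1, another serum amyloid A gene, was also lowest there but was under 2-fold apart in each of these comparisons. Its levels were 0.06 (Saline 12 h), -0.31 (Dex 24 h), -0.62 (Saline 24 h), -0.55 (Noise only) and -0.91 (Baseline).

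**Figure D4:**
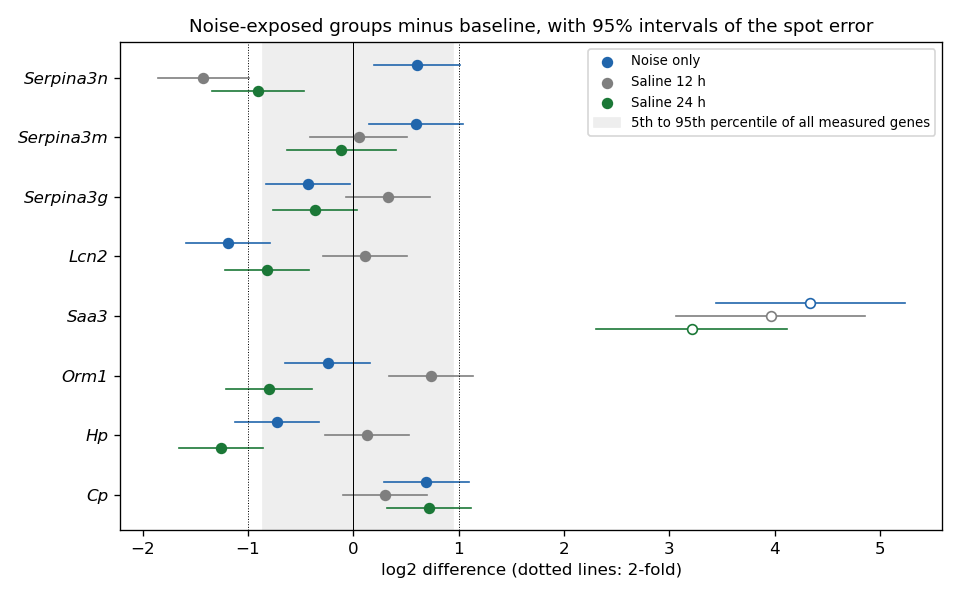
Noise only, Saline 12 h and Saline 24 h minus Baseline for each gene (x axis, log2 difference), with bars for the 95% interval of the spot error, dotted lines at 2-fold and a grey band from the lowest 5th to the highest 95th percentile of all measured genes among the 3 comparisons. Open points for Saa3 are measured differences from a Baseline value not well above background. All 3 comparisons share the Baseline array, and Serpina3n lies at 0.60 for Noise only, -1.42 for Saline 12 h and -0.90 for Saline 24 h.

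Orm1, which encodes the drug-binding plasma protein alpha-1-acid glycoprotein, had levels of 0.05 (Dex 12 h), 0.08 (Saline 12 h), -0.97 (Dex 24 h), -1.46 (Saline 24 h), -0.90 (Noise only) and -0.66 (Baseline). Both 12 h arrays were higher than the other 4, and those arrays are also the ones of the second slide. Dexamethasone and saline differed by less than the spot error at 12 h, with a ratio of 0.978 (0.741 to 1.29), and at 24 h dexamethasone was 1.40-fold (1.06 to 1.86) higher. Orm1 was 1.67-fold (1.26 to 2.20) higher in Saline 12 h than in Baseline and 1.74-fold (1.31 to 2.31) lower in Saline 24 h. The first of these was -0.08 on the log2 scale, in place of 0.74, when arrays were scaled on the E1A spike-in probes.

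Of the 30 other acute phase genes, 22 were measured at 12 h with dexamethasone and saline, and 1 was at least 2-fold higher and 0 lower. That gene was Hpx, which encodes the haem-binding hemopexin, at 2.65-fold (1.93 to 3.63), and the list median was 0.12. At 24 h the counts were 1 higher, Saa2, and 0 lower of 21, with a median of -0.01. After noise alone 1 of 22 was higher, again Saa2, and 2 were lower than at baseline, S100a8, a neutrophil calcium-binding protein gene, at 2.29-fold (1.74 to 3.02) and Steap4 at 2.02-fold (1.48 to 2.75). In Saline 12 h, 2 of 22 were higher than Baseline, Saa2 and Hpx, and 0 lower, with a median of 0.45. In Saline 24 h, 3 of 21 were higher, Saa2, Itih4 (2.18-fold, 1.64 to 2.90) and the complement gene Cfb (2.17-fold, 1.64 to 2.86), and 0 lower.

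Hp encodes haptoglobin, which binds free haemoglobin. Its levels were 5.55 (Dex 12 h), 5.25 (Saline 12 h), 4.45 (Dex 24 h), 3.86 (Saline 24 h), 4.39 (Noise only) and 5.11 (Baseline), highest on the 2 arrays of 12 h, again those of the second slide, and lowest in Saline 24 h. Dexamethasone over saline was 1.24 (0.937 to 1.63) at 12 h, within the spot error, and 1.51 (1.14 to 1.99) at 24 h. Relative to Baseline, Hp was 1.65-fold (1.25 to 2.18) lower after noise alone and 2.39-fold (1.81 to 3.15) lower in Saline 24 h. In Saline 12 h it was 1.10-fold (0.831 to 1.45) the Baseline level, within the spot error.

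Among the 10 genes that handle iron and haem with Hp, Cp and Lcn2, 0 were at least 2-fold apart between dexamethasone and saline at 12 h. Hmox1, the haem-degrading enzyme gene, was 4.47-fold (3.38 to 5.92) higher with dexamethasone at 24 h, the only one of 10. It was 15.1-fold (11.4 to 19.9) lower than Baseline after noise alone, 7.55-fold (5.72 to 9.96) lower in Saline 12 h and 13.4-fold (10.1 to 17.7) lower in Saline 24 h. Cd163, the macrophage receptor that takes up complexes of haemoglobin and haptoglobin, was 4.29-fold (3.24 to 5.68) lower after noise alone, 1.77-fold (1.34 to 2.34) lower in Saline 12 h and 2.89-fold (2.17 to 3.83) lower in Saline 24 h.

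Cp encodes ceruloplasmin, a copper-carrying oxidase of ferrous iron. The probe used had levels of 4.39 (Dex 12 h), 4.16 (Saline 12 h), 3.89 (Dex 24 h), 4.58 (Saline 24 h), 4.56 (Noise only) and 3.86 (Baseline). By this probe Cp was 1.61-fold (1.22 to 2.13) lower with dexamethasone than with saline at 24 h, and 1.62-fold (1.23 to 2.14) higher after noise alone than at baseline. The 5 probes disagreed. At 24 h the probe at chr3:19869171-19869230 gave a dexamethasone level 1.42-fold (1.07 to 1.87) higher, and the other 3 gave differences of -0.14, -0.33 and -0.40, all within the spot error. With the mean over the 5 probes the differences were -0.21 at 24 h and 0.21 after noise, so no direction is given for Cp as a gene.

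Lcn2 encodes lipocalin 2, which binds bacterial iron carriers and is stored in neutrophil granules. Its levels were 5.10 (Dex 12 h), 5.47 (Saline 12 h), 4.14 (Dex 24 h), 4.53 (Saline 24 h), 4.16 (Noise only) and 5.35 (Baseline). It was high in Baseline and on both 12 h arrays and lower on the other 3. The second probe, at chr2:32241037-32241281, gave 2.74, 3.16, 1.60, 1.99, 1.72 and 2.88 in the same order of arrays, which is the same grouping of high and low arrays.

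Noise only was 2.28-fold (1.73 to 3.01) lower than Baseline for Lcn2 by the probe used and 2.24-fold (1.70 to 2.95) by the other. Lcn2 was also 1.77-fold (1.34 to 2.33) lower in Saline 24 h, and within the spot error of Baseline in Saline 12 h. Dexamethasone minus saline was -0.37 (-0.77 to 0.04) at 12 h and -0.39 (-0.79 to 0.01) at 24 h on the log2 scale, and the second probe gave -0.43 (-0.83 to -0.03) and -0.38 (-0.78 to 0.02).

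Neutrophil markers were also lower after noise alone. Of 13 marker genes, all well above background on all 6 arrays, 13 were below Baseline after noise alone and 8 at least 2-fold so, with a median of -1.08. Markers of other blood cells were also lower after noise alone, with a median of -1.29 and 4 of 7 measured at least 2-fold lower for T and NK cells, and a median of -0.52 and 8 of 9 below 0 for macrophages and monocytes. The neutrophil median was -0.68 for Saline 24 h and 0.40 for Saline 12 h against Baseline, and -0.79 and -0.39 for dexamethasone against saline at 12 h and 24 h. The summed level of the 13 was 1055 (Dex 12 h), 1364 (Saline 12 h), 525.6 (Dex 24 h), 677.9 (Saline 24 h), 494.4 (Noise only) and 933.2 (Baseline). Ltf, a lactoferrin gene also used by glands and named after its values were seen, was the 1 marker at least 2-fold higher with dexamethasone at 12 h. Camp and Retnlg, also named after their values were seen, were 2.07-fold and 2.05-fold lower there. The part of neutrophil or other blood cell content in the Lcn2 values was not tested.

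**Figure D5:**
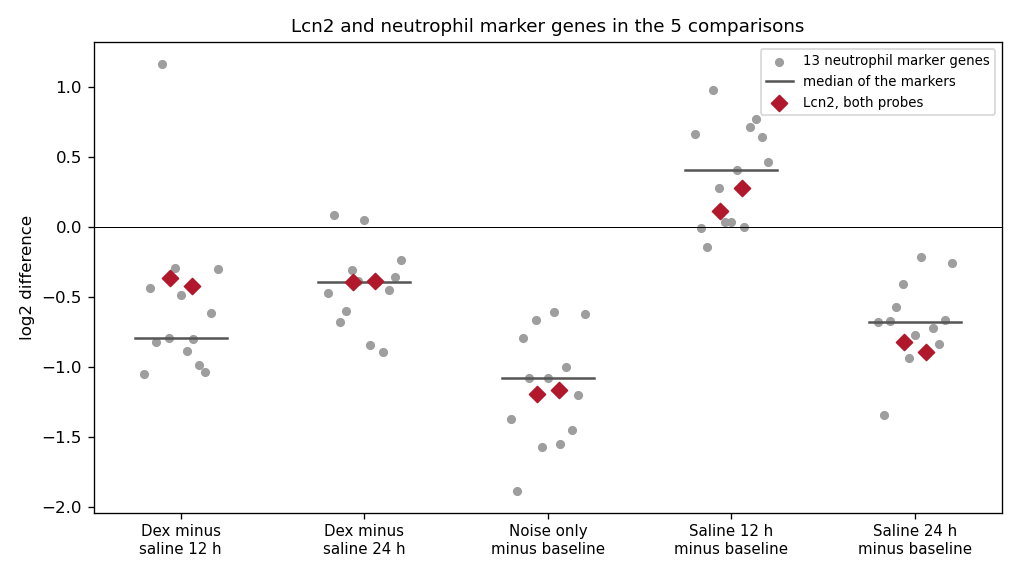
Log2 difference (y axis) of 13 neutrophil marker genes (grey points, with their median as a line) and of the 2 probes of Lcn2 (red diamonds) in the 5 comparisons (x axis); points are spread sideways for legibility. After noise alone both Lcn2 probes, at -1.19 and -1.16, lie near the marker median of -1.08, and at 12 h with dexamethasone they lie above the median of -0.79.

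Genes of the interleukin-6 and STAT3 pathway drive hepatic acute phase synthesis. Of 24 such genes 23 were measured at 12 h with dexamethasone and saline, and 0 were at least 2-fold apart, with a median of 0.08. Il6 was well above background on both 12 h arrays and differed by -0.37 on the log2 scale, with a ratio of 0.774 (0.518 to 1.16), within the spot error. Socs3, the feedback inhibitor that STAT3 induces, had a ratio of 0.999 (0.757 to 1.32), Stat3 1.06 (0.801 to 1.39), Cebpb 0.905 (0.686 to 1.19) and Cebpd 0.736 (0.558 to 0.971).

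At 24 h 0 of 22 measured genes of that pathway were 2-fold apart with dexamethasone, with a median of 0.14. Socs3 was 1.77-fold (1.34 to 2.33) higher and Cebpd 1.45-fold (1.10 to 1.92) higher, and Il6, well above background on the Dex 24 h array only, had a ratio of 2.06 (0.847 to 4.99), within the spot error. After noise alone 0 of 22 were 2-fold apart, and Il6 was well above background on neither array. In Saline 12 h, 1 of 22 was higher than Baseline, Socs3 at 2.35-fold (1.78 to 3.10), and Il6 was at least 2.75-fold higher. In Saline 24 h, 1 of 22 was higher, the cytokine gene Il11 at 2.06-fold (1.43 to 2.95).

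Genes of the glucocorticoid receptor and its known targets were all measured, 16 of 16, in each comparison. With dexamethasone at 12 h, 1 was at least 2-fold higher, the lipid droplet gene Plin4 at 2.02-fold (1.53 to 2.67), and 0 were lower, with a median of 0.18. Fkbp5, a receptor co-chaperone, was 1.28-fold (0.966 to 1.68) the saline level, Tsc22d3 1.13-fold (0.859 to 1.49) and Per1 1.07-fold (0.814 to 1.42), all within the spot error. At 24 h 0 were 2-fold apart, the median was 0.02, and Per1 was 1.66-fold (1.26 to 2.19) lower with dexamethasone. The clock gene Per1 was 2.15-fold (1.63 to 2.84) higher after noise alone and 2.42-fold (1.84 to 3.20) higher in Saline 24 h than in Baseline. Zbtb16 was 2.52-fold (1.91 to 3.33) lower after noise alone and 2.17-fold (1.64 to 2.86) lower in Saline 12 h.

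For Serpina3n, Serpina3m and Lcn2, the named genes with the most similar course over the 6 arrays were found by the root mean square difference of mean-centred log2 levels, over 15563 genes. Lcn2 had close neighbours, Mgst2 (0.101), Prmt1 (0.105), Fpr2 (0.105), Lilra6 (0.109) and Serpinb1c (0.113), with its own root mean square deviation at 0.541. For Serpina3n they were Myo16 (0.449), Dgki (0.457), Gsto2 (0.461), Efcab6 (0.483) and Thrsp (0.488), against its own deviation of 0.872. For Serpina3m they were Ttc41 (0.518), Htr2b (0.522), Zfp607a (0.618), Azgp1 (0.636) and Scgb3a1 (0.674), against 1.344. The distances to the serpin neighbours were thus a large part of the serpins' own spread, and all rest on 6 points.

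RefSeq promoters, 250 bases before to 50 bases after the annotated start on GRCm38.p6, were at hand for Serpina3n, Serpina3g, Lcn2, Saa3 and Cp. Those of Serpina3n and Serpina3g are shown because the genes belong to 1 cluster and their dexamethasone differences had opposite signs at 12 h. Serpina3n is at chr12:104406458-104406757 and Serpina3g at chr12:104235897-104236196, both on the plus strand. Capitals mark AGAACA, the core of the glucocorticoid receptor element, and TTCNNNGAA, the STAT palindrome, each searched on both strands.
Serpina3n: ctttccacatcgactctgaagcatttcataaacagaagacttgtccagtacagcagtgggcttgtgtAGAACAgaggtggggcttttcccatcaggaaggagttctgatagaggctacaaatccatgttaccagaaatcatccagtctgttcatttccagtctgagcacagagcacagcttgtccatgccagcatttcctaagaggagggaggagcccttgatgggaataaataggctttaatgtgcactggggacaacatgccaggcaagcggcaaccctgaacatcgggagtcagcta
Serpina3g: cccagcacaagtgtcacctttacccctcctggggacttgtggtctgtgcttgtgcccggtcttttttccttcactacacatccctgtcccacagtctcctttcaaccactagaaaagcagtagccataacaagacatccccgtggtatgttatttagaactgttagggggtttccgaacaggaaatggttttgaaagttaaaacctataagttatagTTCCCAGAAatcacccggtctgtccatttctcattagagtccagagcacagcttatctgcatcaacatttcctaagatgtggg
Serpina3n held 1 AGAACA, 183 bases before the start, and Serpina3g 1 TTCNNNGAA, 33 bases before the start. Over all 32851 promoters of the same length, 18.97% held AGAACA and 8.3% TTCNNNGAA. The full element, AGAACA followed by 3 bases of any kind and then TGTTCT, contains AGAACA and was in 0.01% of promoters and in 0 of those of the 5 members. One of the 2 Cp promoters held AGAACA 110 bases before its start, and Lcn2 and Saa3 held neither motif in this window. The best local alignment of the Serpina3n and Serpina3g promoters had 215 columns with 65.6% identical bases, and its longest shared run was 13 bases.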

How the data were processed

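Cochlear RNA of 6 groups was measured on 6 one-colour Agilent arrays, 1 per group, with groups taken from the sample titles. The scanner files give linear intensity values that the authors extracted with Agilent Feature Extraction 10.10.1.1, per the submitters' processing notes; per the file headers the processed signal is background-subtracted and the probe positions are on mm9. Values of the authors' deposited series matrix are log2. Set against the scanner files, a column differed from log2 of that array's processed signal by 1 constant in 100.0% of probes (within 0.001), and the column medians were -2.82 (Dex 12 h), -2.86 (Saline 12 h), -2.908 (Dex 24 h), -2.937 (Saline 24 h), -2.989 (Noise only) and -2.964 (Baseline). Its scale, centring and direction were found from these values.

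After outlier spots were dropped, log2 signals were set relative to the array's 75th percentile of non-control probes and averaged per probe. RefSeq accessions named 32994 of 56605 probes (GRCm38.p6, names only), which changed 1535 names, and 16 probes were dropped. The brightest probe stood for a gene. A gene was measured when well above background on both arrays of a comparison. When it was so on 1 array, the fold was taken against the higher of the other array's lowest signal well above background and its own signal there. Calls were at 2-fold, and intervals were 95% intervals of the spot error, dominated by a preset multiplicative error (median 10.1%). The number of arrays limits the precision. No test was run, because each group has 1 array. The counting step was checked on simulated data with known fold changes, which is no test of these differences.

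The members, the 6 pathway lists and 8 marker lists were chosen with earlier results of these data known. Named genes were all members, up to 4 genes of each pathway list by size among those at least 2-fold apart, Fkbp5, Tsc22d3, Per1, Il6, Stat3, Socs3, Cebpb and Cebpd, and the 5 genes closest in course to Serpina3n, Serpina3m and Lcn2 among named genes well above background on all 6 arrays. The alternatives were quantile normalization, normexp (offset 50) with quantile normalization, a percentile taken over probes detected on every array, E1A spike-in scaling, the series matrix, the mean over a gene's probes, other filters on dim probes and thresholds of 1.5-fold and 3-fold. Slide was not fitted as a block, since 4 of the 5 comparisons lie within a slide. Python 3.11.15, pandas 2.3.3, numpy 2.4.6, matplotlib 3.10.9, R 4.3.3, limma 3.58.1 and data.table (version 1.17.8) were used. Promoter sequences are those of RefSeq, and probe sequences those of the array files.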

Additional observations from a re-analysis of the deposited data

Results flagged for a closer look

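The dexamethasone difference of Saa3 had opposite signs at the 2 times, with a log2 difference from saline of 1.09 at 12 h and -0.57 at 24 h, each from 1 array per group. The change of the difference, -1.65 (-2.27 to -1.04), was beyond the spot error, and with 1 array per group and time it was not tested. Orm1 in saline-injected mice lay 0.74 above Baseline at 12 h and 0.80 below it at 24 h, at a log2 difference of -0.80. Both share the Baseline array and the 12 h array lay on the other slide; that difference was not tested.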

How the results depend on the processing

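No paired analysis was possible because each group has 1 array. No member difference larger than its spot error changed sign under the 6 alternatives to scaling, background or probe choice, with the exception of Orm1 for Saline 12 h against Baseline. Saline 12 h against Baseline was the comparison that depended most on scaling: E1A scaling shifted the median of all genes to -0.76 from 0.06, gave 7677 genes at least 2-fold apart, of which 2.9% were higher in place of 56.3%, and turned Serpina3m (-0.77), Serpina3g (-0.49), Lcn2 (-0.70), Hp (-0.69) and Cp (-0.52) negative, all within the spot error before. Lcn2 (-0.36) and Hp (-0.33) were negative with normexp too. The E1A medians were 0.26 (Dex 12 h), -0.11 (Dex 24 h), -0.12 (Noise only) and -0.29 (Saline 24 h), and the shares of calls that were higher 81.6%, 38.2%, 35.3% and 21.0%, in place of 47.1%, 51.7%, 45.5% and 50.1%. Under it, 4 members were 2-fold apart in Saline 24 h against Baseline, in place of 1. Members at least 2-fold apart numbered 3 (Dex 12 h), 1 (Dex 24 h), 1 (Noise only), 1 (Saline 12 h) and 1 (Saline 24 h).

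Among genes at or above the median signal, 0, 0 and 0 members were 2-fold apart for Dex 12 h, Dex 24 h and Saline 12 h, since Serpina3n, Serpina3m and Saa3 lie below that median. With normexp they numbered 0 and 0 for Dex 24 h and Saline 12 h. A 1.5-fold threshold gave 3 (Dex 24 h), 5 (Noise only), 2 (Saline 12 h) and 5 (Saline 24 h), a 3-fold threshold 0, 0, 0 and 0, and no filter 2, 2 and 2 in the comparisons with Baseline, where Saa3 then counts. Genes at least 2-fold apart numbered 856, 718, 1405, 1902 and 791 in the order Dex 12 h, Dex 24 h, Noise only, Saline 12 h and Saline 24 h. In that order they numbered 393, 356, 685, 987 and 410 with normexp, 3610, 2813, 3456, 5466 and 2897 with no filter, 239, 280, 531, 774 and 274 at or above the median signal, 3090, 2521, 3651, 6178 and 2349 at 1.5-fold, and 251, 206, 399, 551 and 265 at 3-fold. The cause of the lower counts with normexp was not tested.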
